A study of Mus musculus with 24 samples.

Results

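The Siglecs are cell surface lectins of the immunoglobulin superfamily, and 7 mouse genes of the family were followed here, Siglec1, Cd22, Cd33, Siglece, Siglecf, Siglecg and Siglech. They were chosen by name from the 45706 genes of the count table and were described across all 24 RNA-seq libraries, which form 8 groups of 3. In 4 groups, tissue-resident macrophages of female C57BL/6J mice aged 8 to 12 weeks were sorted by flow cytometry and lysed directly (ex vivo): microglia of the brain (MG), Kupffer cells of the liver (KC), macrophages of the peritoneal cavity (PM) and alveolar macrophages of the lung (AM). In the other 4, unsorted suspensions of the same organs were grown into adherent macrophages (in vitro): MG-LCs with M-CSF and IL-34, KC-LCs and PM-LCs with M-CSF, all 3 at low oxygen and high glucose, and AM-LCs with GM-CSF at atmospheric oxygen without glucose. No group carried a transgene, a deletion or a stimulus. A brain, lung or peritoneal flask held the cells of several mice and a liver flask those of a single liver. Each culture therefore differed from its sorted counterpart in time, medium and starting cells at once, and AM-LCs differed from the other cultures in growth factor, oxygen and glucose together.

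Siglecs bind sialic acid, the sugar that caps many glycoproteins and glycolipids of an animal's own cells. Most carry tyrosine motifs in their cytoplasmic tail that recruit the phosphatases SHP-1 (gene Ptpn6) and SHP-2 (Ptpn11) and dampen activating signals, among them Cd22 and Siglecg, best known from B cells, and the CD33-related receptors Siglece and Siglecf of myeloid cells. Siglec1 (sialoadhesin, CD169) reaches far from the membrane, has no such motif and serves in adhesion and particle capture, while Siglech signals through the adaptor DAP12 (Tyrobp) and is known from plasmacytoid dendritic cells and microglia.

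Libraries held 29569486 to 47105111 counted reads, with a median of 35965750. Levels are given as CPM (reads scaled to a common library size) after normalization of library sizes over all 24 libraries, and group values as mean ± SD with n = 3. A library with 0 reads of a gene allows a level of up to 0.0661 to 0.1145 CPM (3 reads, 95% confidence, counting error only). The markers of each labelled population, summed over its list, were highest in its own sorted libraries. Single genes did not all follow. Marco of the alveolar list had an average log2 CPM of 9.69 over KC and KC-LCs and 8.62 over AM and AM-LCs. Timd4 of the Kupffer cell list had one of 9.40 over PM and PM-LCs and 8.76 over KC and KC-LCs. The summed level of P2ry12, Tmem119 and Sall1 was 10380 to 10960 CPM in MG and at most 204.3 CPM in another sorted library, and that of Clec4f, Vsig4, Timd4 and Cd5l was 13880 to 24790 CPM in KC. Summed Gata6, Icam2, F5 and Selp lay at 3282 to 3868 CPM in PM, and Car4, Fabp1, Marco and Krt79 at 2900 to 3140 CPM in AM. Not all lists were specific. The Kupffer cell list also summed to 3017 to 3671 CPM in PM. The alveolar list summed to 1220 to 1864 CPM in KC and 583.4 to 983.8 CPM in PM. The peritoneal list reached at most 40.98 CPM in another sorted library. The same lists summed to 14.26 to 64.28 CPM in MG-LCs, 16.95 to 94.04 CPM in KC-LCs, 75.31 to 78.62 CPM in PM-LCs and 59.67 to 438.5 CPM in AM-LCs, far below the sorted cells. Among the cultures the Kupffer cell list went against the KC-LC label, at 214.6 to 2233 CPM in MG-LCs and 142.3 to 825.6 CPM in PM-LCs, both above KC-LCs, and Clec4f, the defining marker of Kupffer cells, averaged 0.0560 CPM in KC-LCs. Of the 4 genes of that list, Cd5l alone passed the count filter over MG and MG-LCs, with an average log2 CPM of 8.99. The MG-LC sum therefore does not stand for the list as a whole. The microglial list reached at most 11.17 CPM in a culture other than MG-LCs, the peritoneal list at most 36.75 CPM outside PM-LCs and the alveolar list at most 2.744 CPM outside AM-LCs.

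In the GENCODE M21 annotation of GRCm38, 6 of the 7 genes lie on chromosome 7 and Siglec1 lies at chr2:131069220-131086765. A cluster holds Siglecf (chr7:43351341-43359531), Siglecg (chr7:43408204-43418358), Cd33 (chr7:43524216-43544428) and Siglece (chr7:43651070-43660161). Cd22 sits apart at chr7:30865402-30880342 and Siglech at chr7:55768178-55778925. Their annotated exons sum to between 1849 bases in Siglece and 7771 bases in Cd33. Of all 50-base stretches of their transcripts, 7.84% in Cd22 and 4.64% in Siglecg also occur in another gene, 1.33% in Siglec1 and at most 0.458% in each of the other 4. Cd22 shares 479 exon bases with the antisense gene Gm29439, and as no strand setting is given the reads of both cannot be told apart there. Gm29439 itself had at most 1 read in any library.

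RefSeq promoter sequences (GRCm38.p6) were at hand for 6 of the 7 genes, not for Siglec1. The 250 bases before the start of Siglece, which fell in every culture, are shown with the letters GAGGAA or their complement, the core of PU.1 sites, in capitals; PU.1 is the main myeloid ETS factor. Those of Siglech, found in MG, are shown with CACGTG, the E-box of the TFE family, and a match to TTGCNNAA, a C/EBP-type motif, in capitals.

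Siglece, chr7:43660162-43660411, minus strand: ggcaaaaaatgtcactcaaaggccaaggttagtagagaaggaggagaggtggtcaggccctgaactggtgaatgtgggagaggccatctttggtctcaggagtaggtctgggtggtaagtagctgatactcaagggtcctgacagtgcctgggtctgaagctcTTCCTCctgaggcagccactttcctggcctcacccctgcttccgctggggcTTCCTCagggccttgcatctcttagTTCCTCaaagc
Siglech, chr7:55767934-55768183, plus strand: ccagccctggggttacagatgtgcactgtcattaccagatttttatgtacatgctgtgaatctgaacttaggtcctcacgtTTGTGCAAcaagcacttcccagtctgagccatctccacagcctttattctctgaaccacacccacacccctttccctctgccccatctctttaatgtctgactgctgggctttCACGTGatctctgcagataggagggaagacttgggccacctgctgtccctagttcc

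GAGGAA occurred 3 times in the Siglece window and was found once each in those of Cd33 and Siglecf. Siglecg has a pair of RefSeq windows that overlap, and GAGGAA occurred 2 times in the one (chr7:43407989-43408238) and 0 times in the other (chr7:43408030-43408279). Over 32851 mouse promoters of the same length, 23.3% held it on either strand, 9.56% held TTGCNNAA, 6.02% held CACGTG and 2.98% held a motif of the interferon-response type, which no member's window held. These motifs do not overlap one another in the windows shown. A longer shared run was noticed on reading the windows. Siglecf and Cd33 have 16 bases in common, in capitals below, at −27 to −12 before the start of Siglecf and −157 to −142 before that of Cd33.

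Siglecf, chr7:43351091-43351340, plus strand: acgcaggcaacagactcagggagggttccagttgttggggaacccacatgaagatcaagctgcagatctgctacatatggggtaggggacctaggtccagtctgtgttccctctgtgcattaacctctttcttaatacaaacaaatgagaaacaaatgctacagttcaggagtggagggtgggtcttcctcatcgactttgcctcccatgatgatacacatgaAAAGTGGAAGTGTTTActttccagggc
Cd33, chr7:43533172-43533421, minus strand: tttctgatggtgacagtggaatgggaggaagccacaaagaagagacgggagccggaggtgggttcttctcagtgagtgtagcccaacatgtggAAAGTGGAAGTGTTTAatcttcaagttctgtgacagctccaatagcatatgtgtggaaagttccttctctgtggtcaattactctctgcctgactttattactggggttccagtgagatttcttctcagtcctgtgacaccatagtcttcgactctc

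Of the 32851 promoters, 2 held these 16 bases, those of Siglecf and Cd33. The longest run that the windows of any other 2 members shared was 10 bases.

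**Figure D1:**
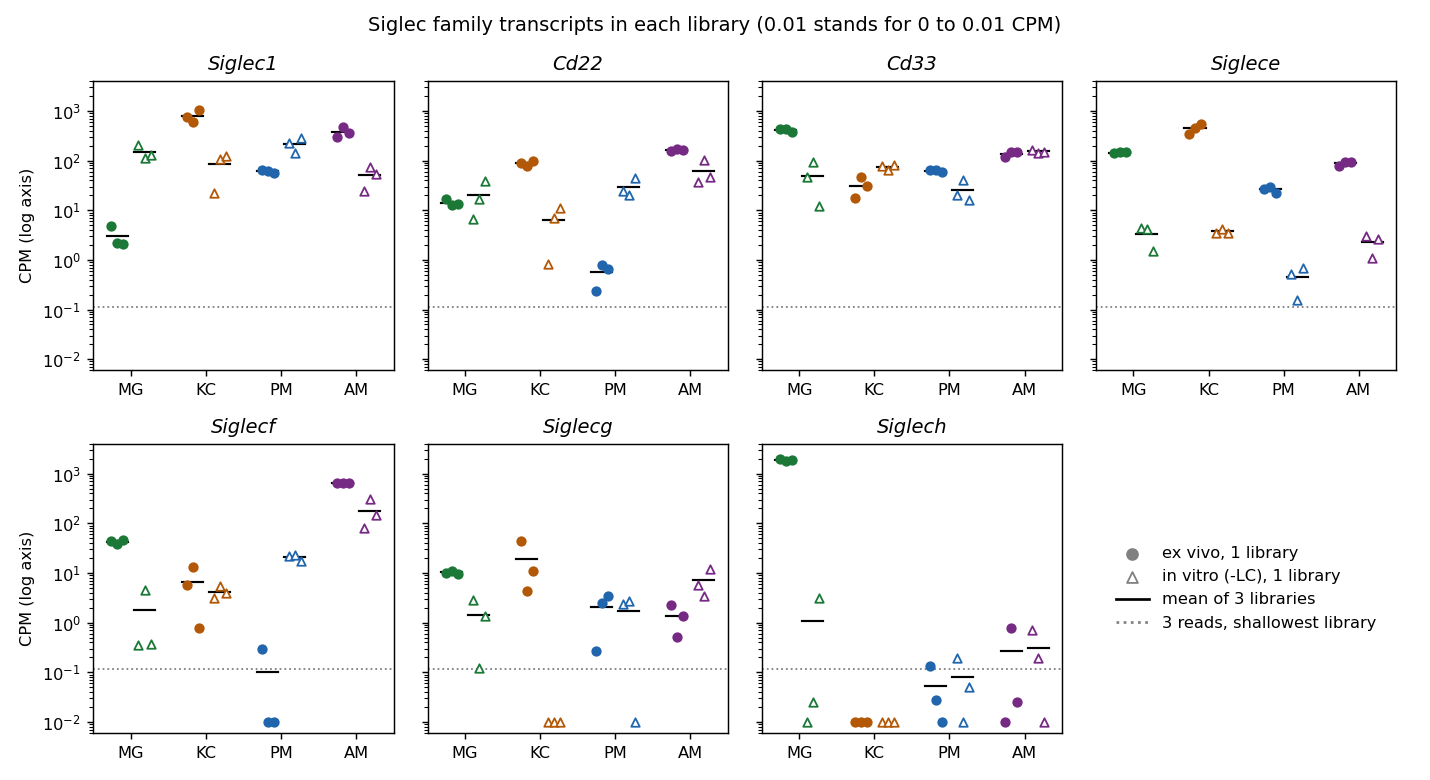
Level of the 7 Siglec genes in each library, in CPM on a log axis, for MG, KC, PM and AM. Filled circles are ex vivo libraries, open triangles in vitro libraries, black lines group means where above 0, and the dotted line is the level of 3 reads in the shallowest library; points at 0.01 stand for 0 to 0.01 CPM. Siglece lies lower in each culture than in its sorted counterpart, Siglech is high in the 3 MG libraries alone, and Siglec1 rises in MG-LCs and PM-LCs and falls in KC-LCs and AM-LCs.

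The 4 sorted populations differed in which Siglec dominated. Per kilobase of exon (RPKM, used wherever genes are compared with each other), Siglech made up 78.3% ± 0.592 of the family's summed level in MG (SD, n = 3), Siglece 63.0% ± 5.84 in KC and Siglecf 60.9% ± 3.17 in AM. PM had no such dominant member, with Siglece at 45.2% ± 2.16, Siglec1 at 27.1% ± 1.2 and Cd33 at 25.7% ± 0.573. The summed level was 705 ± 18.3 RPKM in MG, 383 ± 79.6 RPKM in KC, 384 ± 16.6 RPKM in AM and 31.3 ± 2.51 RPKM in PM, the lowest of the sorted populations. In culture the sum fell to 34.7 ± 5.16 RPKM in MG-LCs, 26.4 ± 8.93 RPKM in KC-LCs and 106 ± 50.2 RPKM in AM-LCs and stood at 47.9 ± 9.86 RPKM in PM-LCs. These sums and shares were not tested. Siglec1 led in MG-LCs with 60.3% ± 14.4 and in PM-LCs with 62.8% ± 9.08, Siglec1 and Cd33 shared the lead in KC-LCs with 40.9% ± 19.2 and 40.7% ± 18.3, and Siglecf kept it in AM-LCs with 57.0% ± 11.7. As these are bulk samples, fewer cells of a type and less RNA per cell cannot be told apart.

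**Figure D2:**
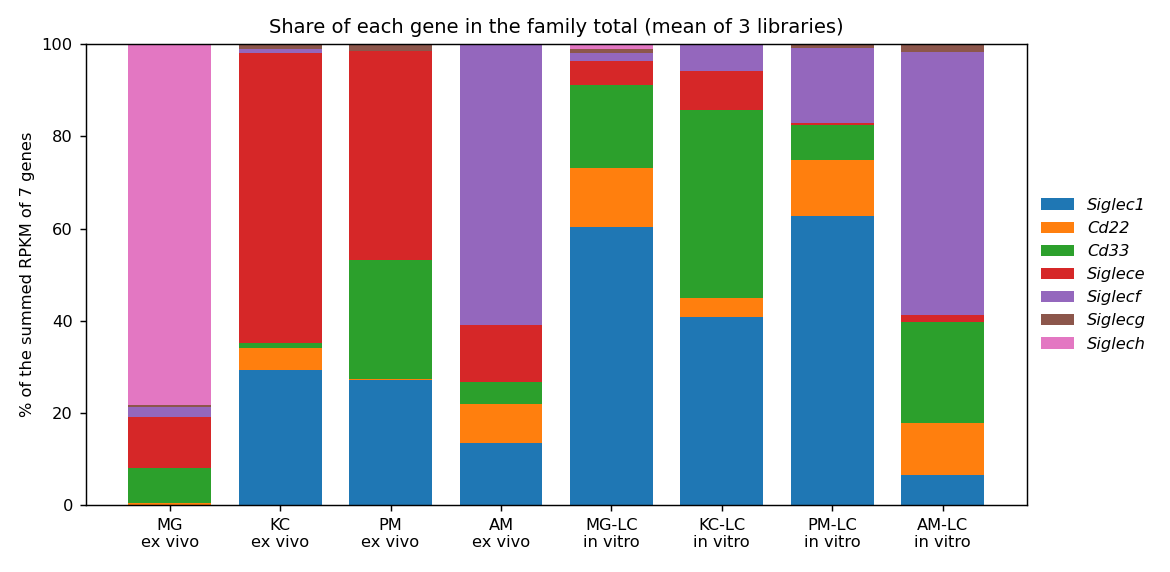
Share of each of the 7 Siglec genes in their summed RPKM (%), mean of 3 libraries per group, stacked to 100%. Siglech fills most of the MG bar, Siglece most of the KC bar and Siglecf most of both the AM and the AM-LC bar, whereas Siglec1 is the largest part in MG-LCs and PM-LCs.

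How the members differed between sorted and cultured macrophages was tested across all genes in each population with edgeR's quasi-likelihood test and Benjamini-Hochberg adjustment. A gene was called when the adjusted p was below 0.05 and the log2 fold change exceeded 1.5 in either direction. In MG, 4 of 7 tested members were called higher ex vivo (Siglech, Siglece, Siglecf and Cd33), beside 13.5% of all genes tested, and Siglec1 was called higher in vitro, beside 16.4%. In KC, 4 of 6 tested members were higher ex vivo (Siglece, Siglec1, Cd22 and Siglecg), beside 14.7% of all genes, and 0 were higher in vitro, beside 7.62%; Cd33 reached an adjusted p of 0.0309 there with a change below the fold threshold. In PM, 1 of 6 was higher ex vivo (Siglece), beside 7.57%, and 3 were higher in vitro (Siglec1, Cd22 and Siglecf), beside 10.2%. In AM, 3 of 6 were higher ex vivo (Siglec1, Siglece and Siglecf), beside 8.62%, and Siglecg was higher in vitro, beside 12.9%. Without any 1 of the 3 MG libraries the MG count of 5 was 3, and with all 24 libraries in 1 fit the AM count of 4 was 2. Siglece was thus the one member called in all 4 populations. A member nearly absent from one side, as Siglech in MG, Siglecg in KC and Siglecf in PM, was tested only through the side where it was high, and its call adds nothing to these counts as evidence. Cd22 in PM (7, 29 and 24 reads) and Siglece in PM-LCs (16, 5 and 27 reads) were also low, and their calls in PM carry the same limit. The median log2 fold change of the tested members was 3.02 in MG, 3.57 in KC, −0.78 in PM and 1.64 in AM, beside medians of −0.03, 0.01, −0.01 and −0.04 over all genes tested. Fibroblast and mesothelial markers moved with culture in 3 of the populations. Their 8 genes summed to 30930, 7.393 and 1012 CPM in MG-LCs (at most 0.2705 CPM in MG), 22.87, 2208 and 365.5 CPM in PM-LCs (0.1909 to 12.76 CPM in PM) and 17.05, 181.4 and 1667 CPM in AM-LCs (at most 0.6574 CPM in AM), and 4 of 4, 7 of 8 and 5 of 5 tested were called higher in vitro. In KC-LCs the sum was 0.024 to 29.83 CPM, against 3.632 to 23.79 CPM in KC, with 0 of 3 tested called. Their part in the members' changes was not tested.

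**Figure D3:**
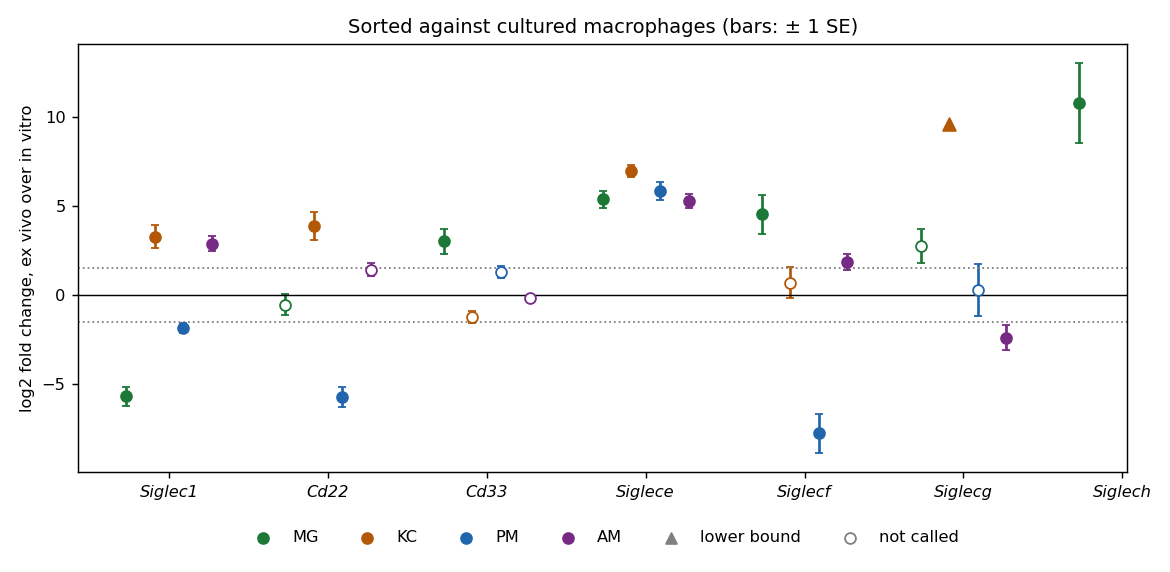
Log2 fold change of each Siglec gene, ex vivo over in vitro, in each population (edgeR; bars ± 1 SE, n = 3 against 3). Filled points were called, open points were not, the triangle is a lower bound against 0 reads, and dotted lines mark a log2 fold change of 1.5 either way. The 4 Siglece points lie between 5.26 and 6.94, whereas the points of Siglec1, Cd22 and Siglecf fall on both sides of 0.

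Siglec1 encodes the sialoadhesin of tissue macrophages that bind sialylated cells and particles. Its level was 757, 608 and 1044 CPM in the 3 KC libraries, 292, 473 and 356 CPM in AM, 63.9, 60.8 and 56.8 CPM in PM, and 4.82, 2.16 and 2.05 CPM in MG. No 2 of these sorted groups overlapped. All pairs were called except KC against AM, whose difference of 1.12 (log2, SE 0.31) had an adjusted p of 0.0139 but stayed under the fold threshold. In culture the levels were 21.8, 109.7 and 124 CPM in KC-LCs, 24.7, 73.7 and 53.3 CPM in AM-LCs, 223, 143 and 289.6 CPM in PM-LCs, and 210.3, 113 and 129.8 CPM in MG-LCs. Siglec1 was therefore lower in every KC-LC and AM-LC library than in any sorted library of its population and higher in every PM-LC and MG-LC library. The log2 fold change (ex vivo over in vitro) was 3.27 ± 0.63 (SE; adjusted p = 0.00747) in KC, 2.87 ± 0.41 (adjusted p = 0.00141) in AM, −1.85 ± 0.27 (adjusted p = 0.00265) in PM and −5.69 ± 0.51 (adjusted p = 0.00108) in MG. MG-LC means were 50.1 times those of MG. The MG-LC library with the highest Siglec1, replicate 1, was the one with 30930 CPM of fibroblast and mesothelial markers, and without that library the log2 fold change was −5.37 (adjusted p = 0.00046).

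Siglece encodes the inhibitory receptor Siglec-E of neutrophils, monocytes and macrophages. It measured 336, 455 and 555 CPM in KC, 141, 146 and 147 CPM in MG, 79.5, 91.8 and 92.3 CPM in AM and 27.4, 28.7 and 22.5 CPM in PM. The order KC, MG, AM, PM held without overlap, and every pair was called except MG against AM (log2 difference 0.68 ± 0.17 SE, adjusted p = 0.00613). The cultures held 3.53, 4.19 and 3.51 CPM in KC-LCs, 4.46, 4.18 and 1.54 CPM in MG-LCs, 3.07, 1.07 and 2.62 CPM in AM-LCs, and 0.517, 0.154 and 0.683 CPM in PM-LCs. Each culture was far below its sorted population, and the PM-LC libraries rested on 16, 5 and 27 reads. Culture means were 0.834% of the sorted mean in KC, 2.34% in MG, 1.72% in PM and 2.56% in AM. The log2 fold change was 6.94 ± 0.33 (adjusted p = 7.76e-05) in KC, 5.36 ± 0.46 (adjusted p = 0.00101) in MG, 5.83 ± 0.53 (adjusted p = 0.000344) in PM and 5.26 ± 0.38 (adjusted p = 0.000124) in AM. A difference among these 4 changes was not called (adjusted p = 0.069, F test of the interaction, 24 libraries). Neutrophils also express Siglece. Their 8 markers summed to 133.6, 91.46 and 2.196 CPM in KC, with S100a8 and S100a9 as the bulk of it, and to at most 8.155 CPM in the other sorted libraries. Their part in the KC level of Siglece was not tested.

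Siglecf encodes the sialic acid receptor Siglec-F, used to recognize alveolar macrophages and eosinophils, and AM were sorted with an antibody to this protein, so that its presence in AM was in part selected. The sorted AM libraries held 662, 651 and 643 CPM, MG 43.4, 38.1 and 45.4 CPM, KC 5.81, 13.3 and 0.77 CPM and PM 0.301, 0 and 0 CPM. Each sorted group lay apart from the next and all 6 pairs were called. In culture, AM-LCs had 82.0, 311 and 145 CPM, PM-LCs 21.9975, 22.8 and 17.2 CPM, KC-LCs 3.10, 5.51 and 3.93 CPM and MG-LCs 0.359, 4.56 and 0.371 CPM. Siglecf thus changed in opposite directions in PM and MG. It was near the detection limit in sorted PM and present in all 3 PM-LC libraries (681, 742 and 679 reads against 9, 0 and 0), and the reverse held for MG, where MG-LC means were 4.16% of the sorted mean. The log2 fold change was −7.76 ± 1.10 (adjusted p = 0.00235) in PM, 4.54 ± 1.10 (adjusted p = 0.0183) in MG and 1.86 ± 0.44 (adjusted p = 0.0107) in AM, and in KC, where the groups overlapped, 0.68 ± 0.88 (adjusted p = 0.578). The AM call was lost when all 24 libraries shared 1 fit (adjusted p = 0.107), and the MG call when any 1 MG library was left out (adjusted p = 0.0615 to 0.0657). In KC the value turned to −0.31 without KC replicate 2. The library with the highest culture level decided the size in AM (2.49 without AM-LC replicate 2) and MG (6.81 without MG-LC replicate 2). Without PM replicate 1, which held all 9 reads, PM-LCs were at least 506.4-fold above PM (3 reads over the other 2 libraries), and without PM replicate 2 or 3 the fitted value was −7.12. Without PM-LC replicate 2, which held the most fibroblast and mesothelial transcripts, it was −7.67 (adjusted p = 0.00141). Eosinophils also carry Siglec-F. Of their 6 markers, Epx and Prg2 had 0 reads in all PM, PM-LC, AM and AM-LC libraries. The list summed to 18.41, 0 and 7.341 CPM in PM-LCs, of which Ccr3 averaged 6.65 CPM, and to 0.4636 to 1.537 CPM in PM. In AM-LCs it summed to 23.32, 166.5 and 40.58 CPM, against 6.776 to 7.829 CPM in AM, and the AM-LC libraries stood in the same order as for Siglecf. That sum was nearly all Ear6, a ribonuclease gene, which was called higher in AM-LCs (log2 fold change −3.37 ± 0.71, adjusted p = 0.00702). In KC the list summed to 1.684, 18.37 and 11.15 CPM, against 0.12 to 1.463 CPM in KC-LCs. Ccr3 was called higher in KC (log2 fold change 3.70 ± 1.11, adjusted p = 0.0359). KC replicate 2 held both the highest sum and the highest KC level of Siglecf, while replicate 3, second in the sum, held the lowest Siglecf. The part of eosinophil transcripts in the Siglecf levels was not tested.

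Cd33 is the gene that names the CD33-related group. The sorted libraries held 438, 438 and 382 CPM in MG, 120.0, 146 and 147 CPM in AM, 65.1, 64.1 and 57.5 CPM in PM and 17.4, 46.7 and 30.4 CPM in KC. MG stood above the others, and no sorted groups overlapped. PM and AM (log2 difference −1.13, adjusted p = 0.00613) and KC and PM (−0.99, adjusted p = 0.014) differed by less than the fold threshold. The cultures spread more, with 46.0, 91.8 and 12.3 CPM in MG-LCs, 166, 145 and 149 CPM in AM-LCs, 20.4, 40.7 and 16.0 CPM in PM-LCs and 78.5, 65.9 and 82.0 CPM in KC-LCs. Cd33 was thus lower in MG-LCs than in MG (log2 fold change 3.02 ± 0.70, adjusted p = 0.0158), a call lost without any 1 MG library (adjusted p = 0.0561 to 0.0595). Its value there was 3.802 without MG-LC replicate 2 and 2.558 without MG-LC replicate 3. It differed by −1.23 ± 0.35 in KC (adjusted p = 0.0309) and 1.28 ± 0.35 in PM (adjusted p = 0.0317), both under the fold threshold, and by −0.17 ± 0.12 in AM (adjusted p = 0.304), where the libraries overlapped.

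Cd22, the inhibitory co-receptor of the B cell antigen receptor, was well measured in 2 of the sorted macrophage populations. AM libraries held 159.5, 169 and 166 CPM and KC libraries 91.3, 79.4 and 100.3 CPM, against 16.9, 12.6 and 13.4 CPM in MG and 0.234, 0.791 and 0.651 CPM in PM. The groups did not overlap, and of the 6 pairs KC against AM alone missed the fold threshold (−0.85 ± 0.23, adjusted p = 0.0123). Cultures held 36.2, 101 and 47.3 CPM in AM-LCs, 0.816, 6.98 and 11.1 CPM in KC-LCs, 6.56, 16.8 and 38.2 CPM in MG-LCs and 24.9, 20.4 and 44.1 CPM in PM-LCs. PM-LCs thus lay above PM by a factor of 53.4 in means (log2 fold change −5.72 ± 0.56, adjusted p = 0.000461), and KC-LCs below KC (3.87 ± 0.80, adjusted p = 0.00933). The PM libraries rested on 7, 29 and 24 reads. The KC value was 3.32 without KC-LC replicate 1 and 4.55 without KC-LC replicate 3. AM-LCs lay below AM in every library with a change just under the fold threshold (1.42 ± 0.35, adjusted p = 0.0128), and MG and MG-LCs overlapped (−0.56 ± 0.59, adjusted p = 0.461), with a value of 0.25 without MG-LC replicate 3. Without PM-LC replicate 2, with 2208 CPM of fibroblast and mesothelial markers, the PM value was −5.89 (adjusted p = 0.000157). The 9 B cell markers summed to 0.7671 to 2.76 CPM in AM.

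B cell transcripts, like Cd22 and Siglecg, were lower in KC-LCs than in KC. The 9 markers summed to 294.4, 469.7 and 415.4 CPM in KC and to 6.254 to 14.45 CPM in KC-LCs, where 5 of the 9 had 0 reads, and all 9 were called higher in KC. Bank1 made up most of that sum (179, 383 and 305 CPM in KC) and was also high in MG and PM. The defining markers were lower, with Ms4a1 at 12.1, 5.03 and 10.4 CPM and Cd79a at 25.6, 13.1 and 24.5 CPM in KC. Cd79b was at 58.6, 52.6 and 57.4 CPM in KC, and at 37.7, 33.8 and 34.8 CPM in MG, where Ms4a1 had 0 reads. Across the KC libraries the sum ran in the reverse order of Siglecg (43.3, 4.28 and 10.8 CPM). Ms4a1, Cd79a and Cd79b ran in the order of Siglecg. Neither order was that of Cd22 (91.3, 79.4 and 100.3 CPM). KC were sorted with antibodies to TIM-4, F4/80, CD11b and CD45. Sorted PM also held Ms4a1 at 1.14, 6.44 and 3.44 CPM and Cd79a at 1.34, 2.92 and 5.07 CPM. The part of B cell transcripts in the KC levels of Cd22 and Siglecg, or in the PM level of Siglecg, was not tested. In PM-LCs the sum was 108.9, 11.48 and 14.58 CPM; Ms4a1 and Cd79a were at 20.6 and 20.5 CPM in the first library and at most 0.491 CPM in the other 2, and Cd22 measured 20.4 and 44.1 CPM in those. Without the first PM-LC library the log2 fold change of Cd22 was −5.84 (adjusted p = 0.00193).

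**Figure D4:**
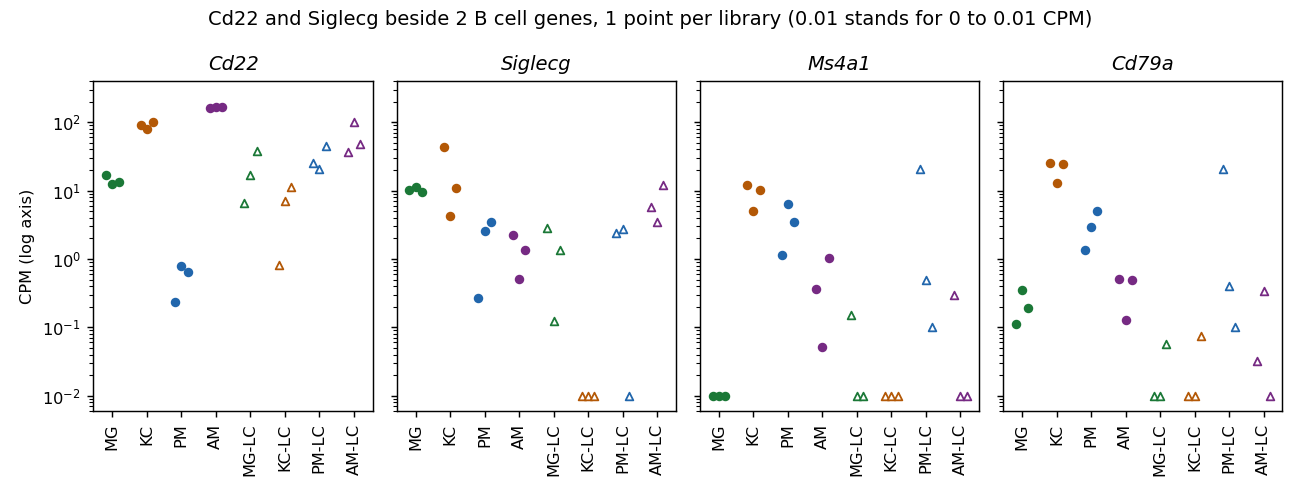
Cd22 and Siglecg beside the B cell genes Ms4a1 and Cd79a, in CPM on a log axis, each point being 1 library of the group named below it (filled circles ex vivo, open triangles in vitro, 0.01 standing for 0 to 0.01 CPM). KC libraries and the first PM-LC library hold both B cell genes at 5.03 CPM or more. In the AM libraries Cd22 is at 159.5 CPM or more, and Ms4a1 and Cd79a are at or below 1.02 CPM.

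Siglecg encodes Siglec-G, an inhibitory receptor of B cells, and was low in most groups. KC libraries held 43.3, 4.28 and 10.8 CPM (1595, 165 and 379 reads), MG 10.1, 11.1 and 9.54 CPM, PM 0.267, 2.54 and 3.47 CPM and AM 2.27, 0.511 and 1.37 CPM. KC spanned the levels of MG, and PM overlapped AM. MG against AM, KC against PM and KC against AM were called (adjusted p = 0.0235, 0.0215 and 0.00831), and the other pairs were not. KC-LC libraries held 0 reads, MG-LCs 2.87, 0.124 and 1.34 CPM, PM-LCs 2.42, 2.76 and 0 CPM and AM-LCs 5.78, 3.47 and 12.0 CPM. KC was at least 788.1-fold above KC-LCs, taking 3 reads over the 3 KC-LC libraries as the limit (adjusted p = 0.00468), and at least 305.5-fold above without KC replicate 1, which held the most reads. AM-LCs stood above AM (log2 fold change −2.40 ± 0.70, adjusted p = 0.0252), but the call was lost when AM replicate 2, AM replicate 3 or AM-LC replicate 3 was left out (adjusted p = 0.0665 to 0.0881) and when all 24 libraries shared 1 fit (adjusted p = 0.177). AM-LC replicate 3 held both the highest Siglecg level and the 1667 CPM of fibroblast and mesothelial markers. MG stood above MG-LCs in every library without reaching the threshold (2.77 ± 0.96, adjusted p = 0.0552), and PM overlapped PM-LCs (0.29 ± 1.47, adjusted p = 0.901), with values of −0.30 without PM replicate 3 and −0.28 without PM-LC replicate 3.

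Siglech had the highest level per kilobase of any member in any group, 553 ± 17.9 RPKM in MG. The MG libraries held 1929.5, 1809 and 1870.2 CPM, from 87592, 66873 and 78389 reads. The 6 KC and KC-LC libraries had 0 reads, and the libraries of the other groups apart from MG-LCs at most 30. MG was at least 68810-fold above KC, taking 3 reads over the 3 KC libraries as the limit. In MG-LCs, 0, 1 and 110 reads (0, 0.0249 and 3.14 CPM) were left, and the mean was 0.0565% of that in MG. The log2 fold change was 10.76 ± 2.23 (adjusted p = 0.0111) and 10.17 without MG-LC replicate 1; without MG-LC replicate 3 a single read was left in MG-LCs and the call held (adjusted p = 0.00124). The 3 microglial markers summed to 64.28, 14.26 and 48.68 CPM in the MG-LC libraries that held 0, 1 and 110 reads. The source of those reads was not tested. The plasmacytoid dendritic cell marker Klk1 had 0 reads in every library, and the list of 5 summed to 6.951 to 7.993 CPM in MG.

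Between sorted populations the members were called in 31 of 42 comparisons of a gene in a pair. By pair, 6 of 7 were called in MG against KC, beside 23.9% of all genes tested, 6 in MG against PM (25.7%), 6 in MG against AM (33.3%), 5 in KC against PM (18.6%), 4 in KC against AM (24.6%) and 4 in PM against AM (21.5%). Siglech was tested in these pairs through its MG level. Siglecf and Cd22 were nearly absent from PM, with at most 9 and 29 reads in a library. The calls of Siglech, and those of Siglecf and Cd22 against PM, add nothing to these counts as evidence. Between cultures 5 calls were made among 6 tested members and 6 pairs. With edgeR's test, 0 members were called in MG-LCs against KC-LCs (0% of all genes called), 0 in MG-LCs against PM-LCs (0.0743%) and 0 in KC-LCs against PM-LCs (0.108%), while 1, 2 and 6 members respectively had an unadjusted p below 0.05. Limma-voom also called 0 in each of these pairs and DESeq2 called 1, 2 and 3. AM-LCs differed from MG-LCs in Siglecf (1 call, beside 5.15%), from KC-LCs in Siglecf, Cd22 and Siglecg (3 calls, beside 5.37%) and from PM-LCs in Cd33 (1 call, beside 3.75%). Of these 5, the 2 of Siglecf were also called among sorted cells in the same direction, while Cd22 in KC against AM and Cd33 in PM against AM were not called there. Siglecg was called in the opposite direction, with means of 19.5 CPM in KC and 1.38 CPM in AM against 0 in KC-LCs and 7.09 CPM in AM-LCs. With 0 reads in KC-LCs, Siglecg was tested in that pair through AM-LCs, and its call adds nothing to the count of 5 as evidence. The log2 difference of Siglecf from AM-LCs was −6.69 (adjusted p = 0.006) in MG-LCs, −5.43 (adjusted p = 0.0108) in KC-LCs and −3.14 (adjusted p = 0.0637) in PM-LCs. The count of 5 fell to 1 to 3 without any 1 of the AM-LC, KC-LC or PM-LC libraries and rose to 8 without MG-LC replicate 2; DESeq2 made 16 calls. The calls of Cd22 (−3.28, adjusted p = 0.0499) and Cd33 (−2.59, adjusted p = 0.034) against AM-LCs were close to the threshold.

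Whether the change between sorted and cultured cells differed among the 4 populations was tested with an F test of the interaction over 24 libraries. Among the 6 members tested in every population it passed for 5, beside 36.3% of all genes tested. Of these 5, Siglecf was nearly absent from PM and Siglecg had 0 reads in KC-LCs. Their p-values rest in part on those groups and add nothing to this count as evidence. The adjusted p was 2.02e-07 for Siglec1, 1.1e-05 for Cd22, 6.19e-05 for Siglecf, 0.000323 for Cd33 and 0.00163 for Siglecg, and it was 0.069 for Siglece. Siglech had a value of 0.00464 but was near or at 0 reads outside sorted MG and entered the fit through that group alone, so that its p says nothing of the other populations. Over 30 alternatives the Siglece value ran from 0.00908 to 0.158 and passed 0.05 in 6, among them DESeq2 (0.00908).

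Outside the 7 members, Siglec15 had at most 20 reads in a library and 0 in every sorted one. Mag, the myelin-associated Siglec of oligodendrocytes, measured 40.4, 45.0 and 51.4 CPM in AM, 30.2, 34.6 and 35.7 CPM in MG, 14.7, 16.4 and 20.3 CPM in KC and 3.64, 3.35 and 2.47 CPM in PM. The oligodendrocyte genes Mog and Mobp had 0 reads in AM, where the 5 markers of that cell type summed to 53.4 to 60.1 CPM, nearly all of it Mbp. Mag was called higher ex vivo in MG (1.65 ± 0.32, adjusted p = 0.00884) and KC (1.63 ± 0.50, adjusted p = 0.0397) and not in PM (−1.06 ± 0.37, adjusted p = 0.0691) or AM (1.33 ± 0.40, adjusted p = 0.0286, under the fold threshold).

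Of 11 signaling partners, each tested in every population, the median log2 fold change was 0.36 in MG, 0.92 in KC, 0.29 in PM and 0.86 in AM. Higher ex vivo were 2 in MG, 2 in KC, 1 in PM and 1 in AM, and higher in vitro 0, 1, 1 and 1, in that order, beside 13.5%, 14.7%, 7.57% and 8.62% of all genes higher ex vivo and 16.4%, 7.62%, 10.2% and 12.9% higher in vitro. Tyrobp, the DAP12 adaptor, was not called in any population (log2 fold change −1.13 in MG, −1.003 in KC, −0.32 in PM and −1.04 in AM), nor was Ptpn6 (1.04, 0.61, 0.59 and 1.00). Some of these missed the fold threshold alone. In edgeR's test the adjusted p of Tyrobp was 0.0402 in KC and 0.00429 in AM, and that of Ptpn6 0.00198 in AM. The other adjusted p-values of the pair were at least 0.0894. The mean of Tyrobp was 1386 CPM in MG-LCs, where Siglech was nearly absent, against 651 CPM in sorted MG. The Src family kinase gene Fgr was higher ex vivo in KC (6.08 ± 0.25, adjusted p = 5.6e-05), PM (4.91 ± 0.55) and AM (2.58 ± 0.25). In MG the inositol phosphatase gene Inpp5d (2.72 ± 0.55) and the kinase gene Lyn (2.23 ± 0.38) were higher ex vivo, and Socs3, an inhibitor of cytokine signaling, was higher in vitro in KC (−2.83 ± 0.51).

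Genes that make or edit the sialic acid ligands were called in both directions. Of the 20 sialyltransferases, 13, 11, 11 and 10 were tested in MG, KC, PM and AM, with medians of 0.21, 0.60, 0.41 and −0.87. Higher ex vivo were 3, 3, 2 and 0 (beside 13.5%, 14.7%, 7.57% and 8.62% of all genes), and higher in vitro 2, 1, 3 and 4 (beside 16.4%, 7.62%, 10.2% and 12.9%). The 2 of 13 in MG and 1 of 11 in KC were near these shares. St3gal6 was higher in MG (4.49 ± 0.70) and KC (2.47 ± 0.44), St6galnac4 in MG (1.88 ± 0.37), St6galnac2 in KC (7.72 ± 1.10) and St8sia6 (7.18 ± 1.08) and St3gal4 (1.82 ± 0.24) in PM. Higher in vitro were St3gal1 (−3.12 ± 0.56) and St3gal4 (−2.03 ± 0.21) in MG, St8sia4 in KC (−1.97 ± 0.52), St6galnac6 (−1.74 ± 0.19) and St6galnac4 (−1.51 ± 0.17) in PM and St3gal5 (−7.38 ± 1.16) and St8sia4 (−2.997 ± 0.236) in AM. St3gal4 was therefore called in opposite directions in MG and PM. Of the 6 genes of sialic acid synthesis, 4, 5, 5 and 5 were tested (medians −0.66, −0.35, −0.12 and −0.45). Higher ex vivo were 0, 0, 1 and 0, and higher in vitro 1, 0, 0 and 0, beside the shares of all genes given for the sialyltransferases. Calls this few in a short list say little of the list. Nans was higher in MG-LCs (−1.55 ± 0.34) and Cmah, which converts the sialic acid Neu5Ac to Neu5Gc, was higher in PM than in PM-LCs (7.36 ± 0.30, adjusted p = 2.63e-05; 90.8 against 0.555 CPM in means). Of the 6 sialidase and O-acetylation genes, 4 were tested in each population (medians 0.55, −0.28, −0.38 and 0.43). Higher ex vivo were 1, 0, 0 and 0, and higher in vitro 0 in each, beside the same shares. The 1 call was Neu3 in MG (1.503 ± 0.427), which is named after its values were seen. Of the 3 ligand carriers, 2, 3, 3 and 3 were tested (medians −0.74, −0.34, 2.41 and 0.25). Higher ex vivo were 1, 0, 2 and 0, and higher in vitro 1, 1, 0 and 1, beside the same shares. Selplg (PSGL-1) was higher ex vivo in MG (4.57 ± 0.58) and PM (2.41 ± 0.16). Cd24a, whose product is a partner of Siglec-G, was higher ex vivo in PM (4.39 ± 0.66) and in vitro in AM (−1.57 ± 0.15). It was also higher in vitro in MG (−6.04 ± 1.68, a low-count gene there, named after its values were seen). Spn was higher in vitro in KC (−2.34 ± 0.54).

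The members did not follow one another across the 24 libraries. Pearson's r of log2 CPM between 2 members ran from −0.785 (Siglec1 and Siglech) to 0.723 (Cd22 and Siglecf), values that rest on 8 groups of 3 and are given as a description. The expressed genes with the most similar pattern were Fcgr4 (r = 0.921), Ifi207 (0.908) and Trim25 (0.890) for Siglec1, Lrrk1 (0.944), Ctu1 (0.925) and Map4k2 (0.922) for Siglece, and Spns1 (0.936), Abcg1 (0.864) and Ccdc86 (0.863) for Siglecf. For Cd22 they were Adcy3 (0.893), Clec4a2 (0.885) and Slc29a1 (0.870), for Cd33 Pex2 (0.903), Med22 (0.818) and B4galt1 (0.802), and for Siglecg Plpp1 (0.828), Focad (0.794) and Rgl1 (0.761).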

How the data were processed

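RNA of 24 samples was amplified with SMARTer v4 and sequenced single-end on libraries made with Nextera XT. The deposited table holds raw read counts per Ensembl mouse gene, which the authors made with their own alignment; submitters' notes name Trimmomatic 0.36 and STAR 2.5.2b, and the strand setting is not given in the sources used here. The notes name a human build and the methods a mouse build, while the gene identifiers are of the mouse. The 7 members and all gene lists were chosen with earlier results of these data known. Symbols came from GENCODE M21 for 45143 of 45706 genes. CPM used TMM-normalized library sizes (edgeR 4.0.16) and RPKM the union of annotated exons. Sorted and cultured libraries of a population were compared with edgeR's quasi-likelihood test after a filter at a minimum count of 10, with Benjamini-Hochberg adjustment over all genes tested. A gene was called at an adjusted p below 0.05 and an absolute log2 fold change above 1.5. Pairs of sorted groups and pairs of cultures were each fitted with their 12 libraries, and the interaction with 24. The design text calls the replicates biological without naming animals, so that p-values measure the spread between these libraries. Named genes were the members, Tyrobp, Ptpn6, Mag, Siglec15, up to 2 called genes per list, direction and population with an average log2 CPM above 3, and the 3 genes most correlated with each member (log2 CPM, prior count 2). The model fits were tested on simulated counts. Alternatives were limma-voom (limma 3.58.1), DESeq2 1.42.0, RLE size factors, 2 other filters on low counts, a replicate block, other thresholds, 1 fit of all libraries, and leaving out each library. Some marker genes are not reported here.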

Additional observations from a re-analysis of the deposited data

Results flagged for a closer look

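For 5 of the 6 members tested in every population the difference between sorted and cultured macrophages differed among the 4 populations in an F test of the interaction (edgeR, 24 libraries, adjusted over all genes tested). The adjusted p was 2.02e-07 for Siglec1, which was called higher ex vivo in KC and AM and higher in vitro in MG and PM. It was 1.1e-05 for Cd22, called higher ex vivo in KC and higher in vitro in PM, and 6.19e-05 for Siglecf, called higher ex vivo in MG and AM and higher in vitro in PM. For Cd33 it was 0.000323, with a call in MG alone, and for Siglecg 0.00163, called higher ex vivo in KC and higher in vitro in AM. Siglech had a value of 0.00464, but it entered the fit through sorted MG alone and was near or at 0 reads elsewhere, so that its p says nothing of the other populations. Siglecf was nearly absent from PM and Siglecg had 0 reads in KC-LCs. Their p-values rest in part on those groups and add nothing to the count of 5 as evidence.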

How the results depend on the processing

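Of 325 alternative values of the 25 members' fold changes between sorted and cultured cells, 301 kept their direction and their side of the threshold, 11 lost the call, 9 gained one and 4 reversed. Those 4 belong to uncalled values: Cd22 in MG was 0.25 without MG-LC replicate 3, Siglecf in KC −0.31 without KC replicate 2, and Siglecg in PM −0.30 without PM replicate 3 and −0.28 without PM-LC replicate 3. Leaving out 1 library at a time gave −0.99 to 0.25, −0.31 to 1.23 and −0.30 to 0.83 for these 3. Siglece kept its call in each population under every alternative. The count of members called ran, over libraries left out 1 at a time, from 3 to 6 in MG, 4 to 5 in KC, 4 to 5 in PM and 3 to 5 in AM, from 30 to 32 among sorted pairs, 1 to 8 among pairs of cultures and 6 to 7 for the interaction, Siglech included; the cause was not tested beyond the smaller number of samples. With all 24 libraries in 1 fit the AM count was 2, and DESeq2 gave 16 calls among pairs of cultures; the cause was not tested. Same-numbered libraries of a population showed next to no shared deviation (correlations of −0.104 to 0.0558). These values, from 3 libraries per group, cannot decide whether the numbers pair the samples, and the labels do not say. With a replicate block the counts were 5, 4, 4 and 5 in MG, KC, PM and AM, 30 among sorted pairs, 4 among pairs of cultures and 6 for the interaction, and Cd22 in AM gained the call (log2 fold change 1.56, adjusted p = 0.00716). Depth limited Siglech outside MG, Siglecf in PM and Siglecg in KC-LCs, where a few reads or none were counted.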
